A study of Mus musculus with 4 samples.

Results

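Th1-like cells of the mouse colon were 89 of 1050 CD4 T cells (8.48%, exact binomial 95% interval 6.86% to 10.3%). A cell was a member when it held at least 1 count of Tbx21, Ifng, Nkg7 or Ccl5, no count of Foxp3, Il10 or Ikzf2, and fewer than 2 of the naive T cell genes Ccr7, Igfbp4, Satb1, Lef1, Tcf7 and S1pr1. They were set against the rest, 300 cells that met every condition but the first. Measured counts chose the members, so the levels of the 4 gate genes in them are a description and no result.

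The cells were sorted as CD45+ TCRb+ CD4+ from digested colon lamina propria, the connective tissue beneath the gut epithelium, of male B6 mice aged 6 weeks, and profiled by inDrops, which captures the RNA of single cells in droplets with barcoded primers. The labels name 4 samples, all of 1 group called Btheta_colon, and give neither a treatment nor a genotype beyond the strain. The 1 table of counts covered 1985 barcodes and 25724 gene symbols, its barcodes carried no sample name, and it was handled as 1 sample. No p-value, standard error or spread between mice can therefore be given, and every interval covers counting error only.

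T helper 1 (Th1) cells are the CD4 T cells that respond to intracellular microbes. The transcription factor T-bet, the product of Tbx21, directs them, and interferon gamma, the product of Ifng, is their defining cytokine. In the mouse gut such cells live beside regulatory T cells (Tregs), Th17 cells and GATA3-expressing cells, and T-bet in T cells is known to drive the chemokine receptor CXCR3. Nkg7 encodes a membrane protein of cytotoxic granules, and Ccl5 a chemokine secreted by activated T cells and natural killer (NK) cells.

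Depth was alike on both sides. The 89 Th1-like cells held 120340 counts, with 571 to 4812 per cell and a median of 1157, against 432434 counts, 501 to 13023 per cell and a median of 1200.5 in the rest. A median of 590 genes was detected per Th1-like cell and 587 per cell of the rest, and the median mitochondrial share was 4.28% and 4.75%. No barcode was repeated. Naive-like cells, 72 cells with at least 2 of the naive genes, had a median of 1362.5 counts, and the 332 cells with Foxp3, the defining gene of Tregs, a median of 1304.5.

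Nkg7 brought in most members. It was detected in 63 of the 89 cells (70.8%), with 127 counts and at most 8 in a cell, and was the sole gate gene in 39 of them. Tbx21 was detected in 25 cells (28.1%) with 42 counts, Ccl5 in 19 cells (21.3%) with 79 counts, and Ifng in 17 cells (19.1%) with 42 counts. Tbx21 or Ifng, the genes that define Th1 cells, were detected in 37 cells (41.6%), so the other members entered on Nkg7 or Ccl5 alone. Nkg7 was also detected in 10.5% of Foxp3-positive and 2.78% of naive-like cells. The gate raises the share among members, so the like count is 63 of the 389 cells of both sides, beside 35 of 332 Foxp3-positive cells. At the edge of the gate, 35 members held exactly 1 gate count and 54 held 2 or more, while each cell of the rest held 0. A total of 63 members had 1 gate gene, 18 had 2, 7 had 3 and 1 had all 4. A pair of members stood apart with 42 and 22 gate counts, and the 42 counts comprised 20 of Ccl5, 10 of Ifng, 8 of Nkg7 and 4 of Tbx21 in a cell of 2968 counts.

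**Figure D1:**
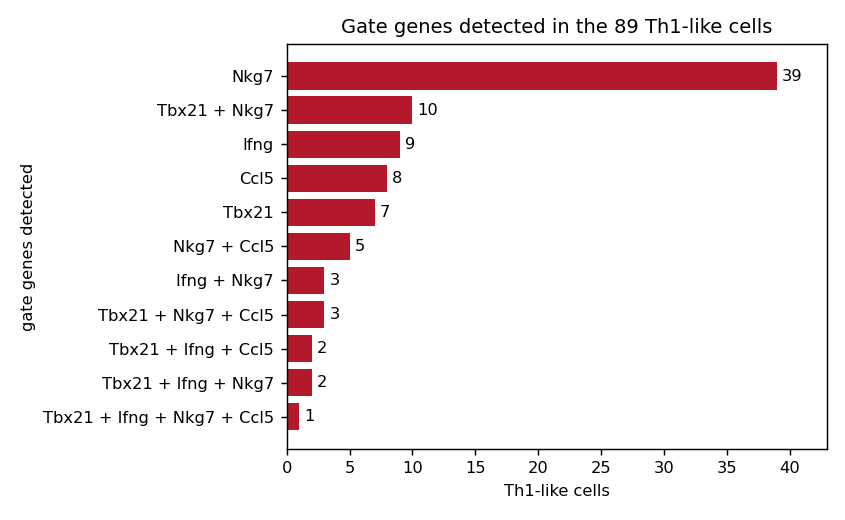
Number of Th1-like cells (horizontal axis, cells) with each combination of the 4 gate genes (vertical axis); each bar is 1 combination and the bars sum to the 89 members. Nkg7 as the sole gate gene accounts for 39 cells, and Tbx21 with Nkg7 for 10.

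Most members held 1 gate gene, and some pairs were found in the same cells. Over the 389 cells of both sides, Nkg7 was detected in 16 of 25 cells with Tbx21 (64.0%), against 47 of 364 cells without it (12.9%). Tbx21 was detected in 5 of 17 cells with Ifng (29.4%), against 20 of 372 without (5.38%). Nkg7 was detected in 9 of 19 cells with Ccl5 (47.4%), against 54 of 370 without (14.6%). Nkg7 was detected in 6 of 17 cells with Ifng (35.3%), against 57 of 372 without (15.3%). Since the gate put every cell with such a gene on 1 side, these shares are a description.

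Because cells that hold a gate gene must show it, the counts of each cell were also split at random into 2 equal parts, with the Th1 condition read in 1 part and levels in the other. The 63 cells chosen on 1 part had 341 counts scaled to a common total (CPM, counts per 1000000) of Tbx21 in the other part, against 30.2 CPM in the 326 cells not chosen. In the same order, chosen cells against cells not chosen, Ifng had 455 against 12.9 CPM, Nkg7 1002 against 82.0 CPM and Ccl5 774 against 43.2 CPM. The cells not chosen were the 300 cells of the rest and the members whose gate counts all fell in the other part. These values describe the gate and support nothing. Where counts are reads, copies of 1 molecule can fall in both parts, and the part of such copies in these values was not tested. This split was chosen after the data were seen.

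Other cells that the sort could hold were looked for with marker lists. Cd8a, which encodes the alpha chain of CD8, had 0 counts in the 89 Th1-like cells, which at 3 counts of the total allows a share of up to 3.37% of cells with a count, and 0 counts in the rest. The CD8 list summed to 2 counts in Th1-like cells and 6 in the rest. The 11 genes of the NK and innate lymphoid list summed to 4 counts in 3 Th1-like cells and 23 counts in 9 cells of the rest, and Ncr1, the NK receptor gene, was at 0 on both sides. The gamma delta T cell list summed to 9 counts in 3 Th1-like cells and 10 counts in 9 cells of the rest, with Trdc, the delta chain constant region, at 0 on both sides. Erythroid genes had 0 counts in Th1-like cells and 1 in the rest, and the B and plasma cell list had 3 and 24 counts.

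A gene counts as measured here when both sides together held at least 20 counts. Across the 4525 measured genes, 335 (7.40%) were at least 2-fold higher in Th1-like cells and 633 (14.0%) at least 2-fold lower. Any higher value was found for 2182 genes (48.2%) and any lower value for 2343 (51.8%), with a median log2 ratio of -0.03. At least 1.5-fold, the bound used for gene lists, was passed by 852 genes (18.8%) upward and 1113 (24.6%) downward. With 89 cells on 1 side, many of these ratios rest on few counts, and the numbers of genes describe this table and are no test. A single value given for a gene from here on is the log2 ratio of its CPM, Th1-like cells over the rest, with its 95% counting interval in brackets.

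T cell genes were mostly slightly higher in Th1-like cells than in the rest. Cd4 was detected in 36 Th1-like cells (40.4%), against 97 cells of the rest (32.3%). Of the 14 T cell identity genes, all measured, 12 were higher and 2 lower, 3 were past 1.5-fold higher and none lower, with a median log2 ratio of 0.22, against 48.2% and 51.8% of all measured genes higher and lower. The 3 past 1.5-fold are near the 18.8% of all measured genes that passed it upward. Lck, the kinase bound to CD4, had 1222 CPM in Th1-like cells and 784 CPM in the rest, a log2 ratio of 0.64 (0.35 to 0.92).

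RNA of other tissue cells was concentrated in a few cells of the rest. The epithelial list summed to 6 counts in Th1-like cells, where 9 of its 13 genes in the table were at 0, against 2558 counts in the rest, 99.5% of them in 7 cells. The stromal and endothelial list summed to 37 counts in Th1-like cells and 601 in the rest, 94.3% of them in 7 cells of the rest. The myeloid list summed to 2 counts in Th1-like cells and 287 in the rest, with 97.6% in 7 cells. Counts of these cells enter the total behind each CPM value of the rest. The main comparisons were therefore repeated without cells that held an epithelial, stromal, endothelial, myeloid, B or plasma cell marker. This left 66 Th1-like cells and 234 cells of the rest. A single count of a marker was enough to leave a cell out. Pecam1, of the stromal and endothelial list, was detected in 12 Th1-like cells and 27 cells of the rest, at a median of 1 count. How many of the cells left out held RNA of other tissue cells was not tested. Cd74, H2-Aa, H2-Ab1 and H2-Eb1 of the myeloid list were not used for this, so cells with only these markers stayed in.

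Among the 1800 genes with at least 30 counts in all and detection in at least 10% of the cells on their higher side, Cxcr3 had the highest ratio. A gene can pass that detection minimum through its higher side alone, so the rank is a description. It encodes the receptor for the interferon-induced chemokines CXCL9, CXCL10 and CXCL11, and is a classical surface marker of Th1 cells. Th1-like cells held 43 counts in 29 cells and the rest 22 counts in 19 cells, with at most 4 and 2 in a cell. This gave 357 CPM in Th1-like cells and 50.9 CPM in the rest, a ratio of 7.02 and a log2 ratio of 2.81 (2.04 to 3.62). The gene was not used in the gate.

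Cxcr3 lies on the minus strand of chromosome X at 101731535 to 101734269 (mm10, GENCODE vM21, protein coding). Its promoter is shown because T-bet, encoded by a gate gene, is known to act on this gene. The core of the T-box element, TCACAC, or its complement GTGTGA, was searched (both strands) of the 250 bases before each start in the RefSeq promoter table (GRCm38.p6), and 4039 of 32851 promoters (12.3%) held it. Both genes shown matched that table by symbol. The sequences read 5′ to 3′ on the gene's strand, with the match in capitals; for each gene only the bases before the annotated gene are printed, at chrX:101734270-101734397 for Cxcr3 and chr1:164935528-164935772 for Xcl1, a chemokine gene described further on.
Cxcr3: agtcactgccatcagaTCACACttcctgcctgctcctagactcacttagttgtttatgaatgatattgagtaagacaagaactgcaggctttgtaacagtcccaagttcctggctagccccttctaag
Xcl1: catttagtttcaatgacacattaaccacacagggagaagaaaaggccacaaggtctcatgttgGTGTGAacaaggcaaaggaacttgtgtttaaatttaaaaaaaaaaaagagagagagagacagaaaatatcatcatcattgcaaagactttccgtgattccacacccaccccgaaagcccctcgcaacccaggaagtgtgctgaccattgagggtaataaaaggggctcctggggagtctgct
The match began 112 bases before the annotated Cxcr3 gene and 182 bases before Xcl1. A match of these letters is a description and not a site of binding. Only these genes were taken for display, so they do not tell how often genes higher in Th1-like cells hold the element.

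Detection of Cxcr3 was also higher in Th1-like cells than in the other populations. It was found in 32.6% of Th1-like cells (23.0% to 43.3%), 6.33% of the rest (3.86% to 9.71%), 4.17% of naive-like cells and 5.12% of Foxp3-positive cells. Naive T cells are known to carry little of this receptor. Of the naive-like cells with Cxcr3, 2 also held a gate gene and 1 did not, so their share is no clean measure of free RNA. After each cell was thinned at random to 500 counts, a depth that all kept cells reached, the shares were 14.6% (8.01% to 23.7%) in Th1-like cells and 3% (1.38% to 5.62%) in the rest. None of the 72 naive-like cells held a count after thinning, which allows up to 4.17%, and 1.20% of Foxp3-positive cells did.

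**Figure D2:**
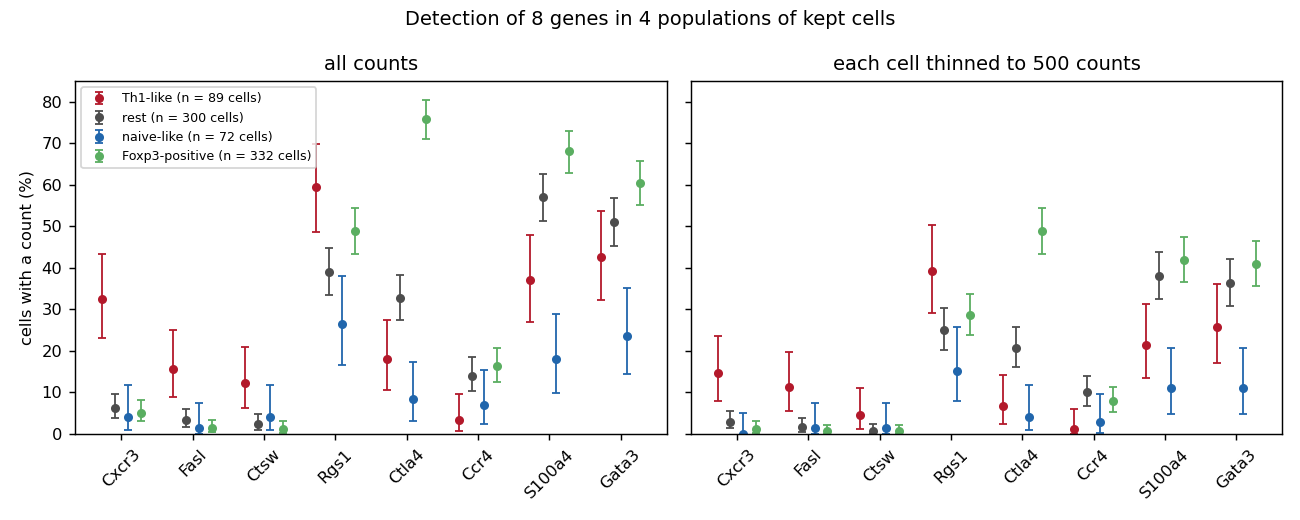
Percent of cells with at least 1 count (vertical axis) for 8 genes in 4 populations, from all counts (left) and after thinning each cell to 500 counts (right); points are shares and bars exact binomial 95% intervals, which cover counting error only. Cxcr3 was found in 32.6% of Th1-like cells and 6.33% of the rest from all counts, and in 14.6% and 3% after thinning, while Ctla4 and S100a4 ran the other way.

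Cxcr3 was present whichever gate gene let a cell in. Shares were 8 of 25 members with Tbx21 (32.0%), 7 of 17 with Ifng (41.2%), 17 of 63 with Nkg7 (27.0%) and 6 of 19 with Ccl5 (31.6%), and members can belong to several of these sets. Members with exactly 1 gate count held it in 13 of 35 cells (37.1%, 21.5% to 55.1%) and members with 2 or more in 16 of 54 cells (29.6%, 18% to 43.6%). These intervals overlap, and so few cells cannot show that the shares are equal. Split by the number of gate genes, Cxcr3 was detected in 23 of 63 members with 1 gate gene (36.5%, 24.7% to 49.6%). Of the members with 2 or more gate genes, 6 of 26 held it (23.1%, 8.97% to 43.6%), again with overlapping intervals.

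Cxcr3 was also read outside these 389 cells. Among Foxp3-positive cells Cxcr3 was detected in 4 of 53 cells with a gate gene (7.55%), against 13 of 279 without one (4.66%). Among cells with Il10 or Ikzf2 but no Foxp3, it was detected in 3 of 44 with a gate gene (6.82%), against 10 of 213 without (4.69%). The intervals overlapped in both, 2.09% to 18.2% against 2.50% to 7.84% for the Foxp3-positive cells. Among naive-like cells it was detected in 2 of 5 with a gate gene (40%), against 1 of 67 without (1.49%). Whether the link of Cxcr3 to the gate genes differs between these populations was not tested.

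Cxcr3 was higher in Th1-like cells under every alternative run. Over these 14 alternatives its log2 ratio lay between 1.95 and 2.93. The lowest came from applying both gate and levels to cells thinned to 500 counts. All gate conditions were read anew there, also those on Foxp3, Il10, Ikzf2 and the naive genes. This gave 85 Th1-like cells and 516 cells of the rest. The alternative with gate and levels from separate parts of the counts did the same, with 79 and 461 cells. Cells with such a gene in their full counts could thus enter either alternative. In the split of counts into 2 parts made for the gate genes, with Cxcr3 also read in cells chosen on the other part, it had 364 CPM in the chosen cells and 77.7 CPM in the others, a log2 ratio of 2.23 (1.16 to 3.28).

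**Figure D3:**
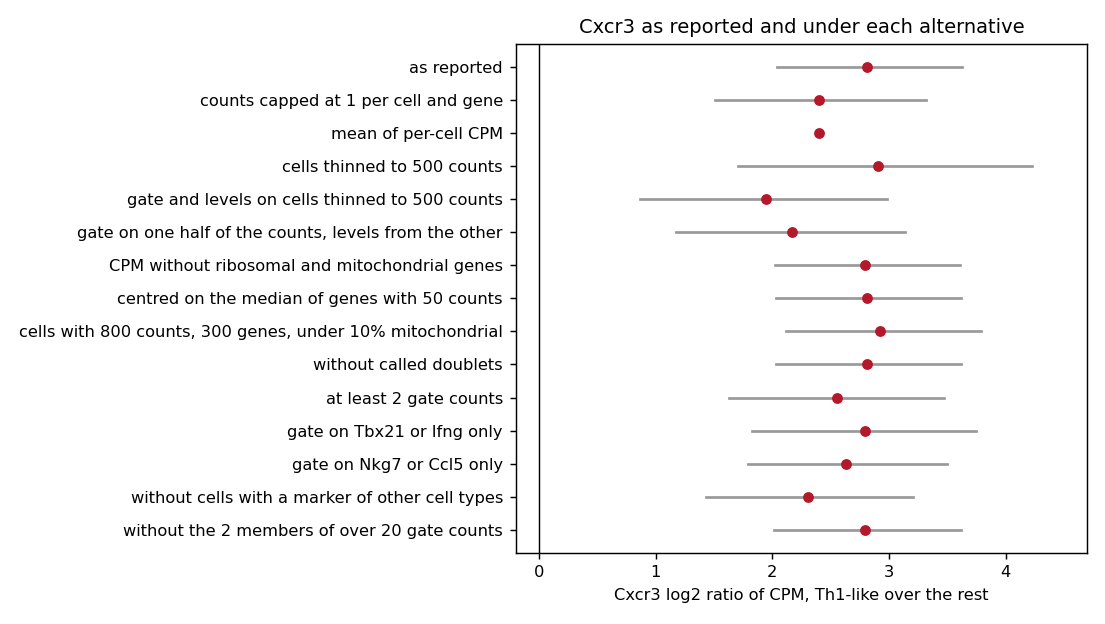
Log2 ratio of Cxcr3 CPM, Th1-like cells over the rest (horizontal axis), as reported and under each of 14 alternatives (vertical axis); points are ratios and lines exact 95% counting intervals, with none for the mean of per-cell CPM. All points lie between 1.95 and 2.93, right of 0.

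Fasl and Ctsw, both linked to killing of target cells, were also higher in Th1-like cells. Fasl, which encodes the ligand of the death receptor Fas, had 19 counts in 14 Th1-like cells (158 CPM) and 16 counts in 10 cells of the rest (37.0 CPM), a log2 ratio of 2.09 (1.06 to 3.15). A count was found in 15.7% of Th1-like cells, 3.33% of the rest, 1.39% of naive-like cells and 1.51% of Foxp3-positive cells, and thinned to 500 counts in 11.2%, 1.67%, 1.39% and 0.602%. Ctsw encodes cathepsin W, a protease found in cytotoxic lymphocytes. It had 16 counts in 11 Th1-like cells (133 CPM) and 8 counts in 7 cells of the rest (18.5 CPM), a log2 ratio of 2.85 (1.54 to 4.28). Detection was 12.4% in Th1-like cells, 2.33% in the rest, 4.17% in naive-like and 1.20% in Foxp3-positive cells. In thinned cells Ctsw was found in 4 of 89 Th1-like cells and 2 of 300 cells of the rest, where the intervals of the shares, 1.24% to 11.1% and 0.0808% to 2.39%, overlap.

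At least 1 count of Cxcr3, Fasl or Ctsw was found in 44 of 89 Th1-like cells (49.4%) and in 34 of 300 cells of the rest (11.3%). Each of these genes was already higher in this same comparison, so a higher joint share was bound to follow and is a description. The overlap of Fasl and Ctsw with Cxcr3 rests on few cells. Of the 14 members with Fasl 2 also held Cxcr3, and of the 11 with Ctsw 6 did. Whether Fasl and Ctsw differ in this was not tested. In the split of counts the intervals of both killing genes reached past 0, with log2 ratios of 1.40 for Fasl (-0.30 to 2.92) and 1.91 for Ctsw (-0.08 to 3.79).

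Xcl1, a chemokine that attracts cross-presenting dendritic cells, had 9 counts in 6 Th1-like cells and 0 in the rest, the naive-like cells and the Foxp3-positive cells. Against a floor of 3 counts over the 300 cells, which corresponds to 6.94 CPM, it was at least 10.8-fold higher. On the log2 scale that bound is 3.43, its own counting interval begins at 2.83, and it lay between 2.79 and 3.66 over 10 alternatives. The gene lies on the minus strand of chromosome 1 at 164931644 to 164935527. Of the 6 members with Xcl1, 3 held Nkg7, 2 held Ifng and 2 held Ccl5, and 4 held a single gate count. With 9 counts the gene fell short of the 20 that made a gene measured. In the random split of counts it had 1 count in chosen cells and 3 in the cells not chosen. As the rest held 0 counts, those 3 came from members whose gate counts all fell in the part used for levels.

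The secreted killing proteins of cytotoxic cells were nearly absent. Prf1, which encodes perforin, and Gzmk were at 0 in Th1-like cells and in the rest, and so were Crtam and Klrc1. All 18 counts of Gzma in Th1-like cells came from 1 cell, the member with 42 gate counts, and the rest had 0. Gzmb had 12 counts in 2 Th1-like cells (99.7 CPM) and 56 counts in 16 cells of the rest (129 CPM), a log2 ratio of -0.38 (-1.41 to 0.54). A count of 0 in 89 cells allows up to 24.9 CPM, so low levels of these genes were not detectable at this depth.

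Of the 20 genes of the cytotoxic list, 7 were measured, of which 4 were higher, all past 1.5-fold, and 3 lower, 1 of them past 1.5-fold, with a median log2 ratio of 0.66. Among all measured genes, 18.8% were past 1.5-fold higher and 24.6% lower. The other measured members were Cd226 at 0.97 (-0.18 to 2.05), Klrk1 at 0.66 (-0.51 to 1.74), Srgn, the proteoglycan that packs granules, at -0.06 (-0.32 to 0.18), and Lamp1. Lamp1, a lysosome membrane protein that appears on the surface when granules are released, had 41.6 CPM in Th1-like cells and 201 CPM in the rest, a log2 ratio of -2.28 (-3.93 to -1.0). The median of so few genes moved with the processing, to -0.18 in cells thinned to 500 counts and to 0.24 without the cells holding other markers, so the list as a whole has no settled direction.

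The wider Th1 program leaned higher by small amounts. Of its 24 genes 12 were measured, of which 11 were higher and 1 lower, 3 were past 1.5-fold higher and none lower, with a median log2 ratio of 0.27. Over all measured genes 48.2% were higher and 18.8% past 1.5-fold higher, so the 3 genes are near the latter share. Cxcr3 and Fasl were among those past 1.5-fold. Without the cells that held markers of other cell types, the median was 0.05.

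Ifngr1, a chain of the interferon gamma receptor, had 1172 CPM in Th1-like cells and 874 CPM in the rest, a log2 ratio of 0.42 (0.13 to 0.71).

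The parts of the interleukin 12 pathway, which drives Th1 differentiation, showed no difference past counting error. Stat4, the factor that interleukin 12 activates, had a log2 ratio of 0.17 (-1.02 to 1.23) and Il12rb1, a receptor chain, -0.15 (-1.59 to 1.07). Il12rb2, the inducible receptor chain, was at 0 on both sides. Runx3, a partner of T-bet, was at 0.28 (-0.49 to 1.0), Il27ra at 0.26 (-0.53 to 0.99) and Bhlhe40, a regulator of cytokine production, at 0.03 (-0.71 to 0.71). Hlx and Twist1, both T-bet-linked regulators, were at 0 on both sides, and Eomes, the T-box relative of T-bet, had 0 counts in Th1-like cells and 3 in the rest. Each of these intervals reaches past a 1.5-fold difference in at least 1 direction, so differences of that size were not detectable at this depth.

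Cytokines beyond interferon gamma were sparse. Il2, the T cell growth factor, had 83.1 CPM in Th1-like cells and 69.4 CPM in the rest. Tnf had 7 counts in 4 Th1-like cells and 11 counts in 8 cells of the rest, a log2 ratio of 1.19 (-0.41 to 2.69). Csf2 had 1 and 10 counts, and Lta 2 and 8. None of the 6 chemokine genes listed was measured, and they summed to 12 counts on each side, 99.7 CPM in Th1-like cells and 27.8 CPM in the rest, with Ccl3 and Ccl4 at 0 on both.

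**Figure D4:**
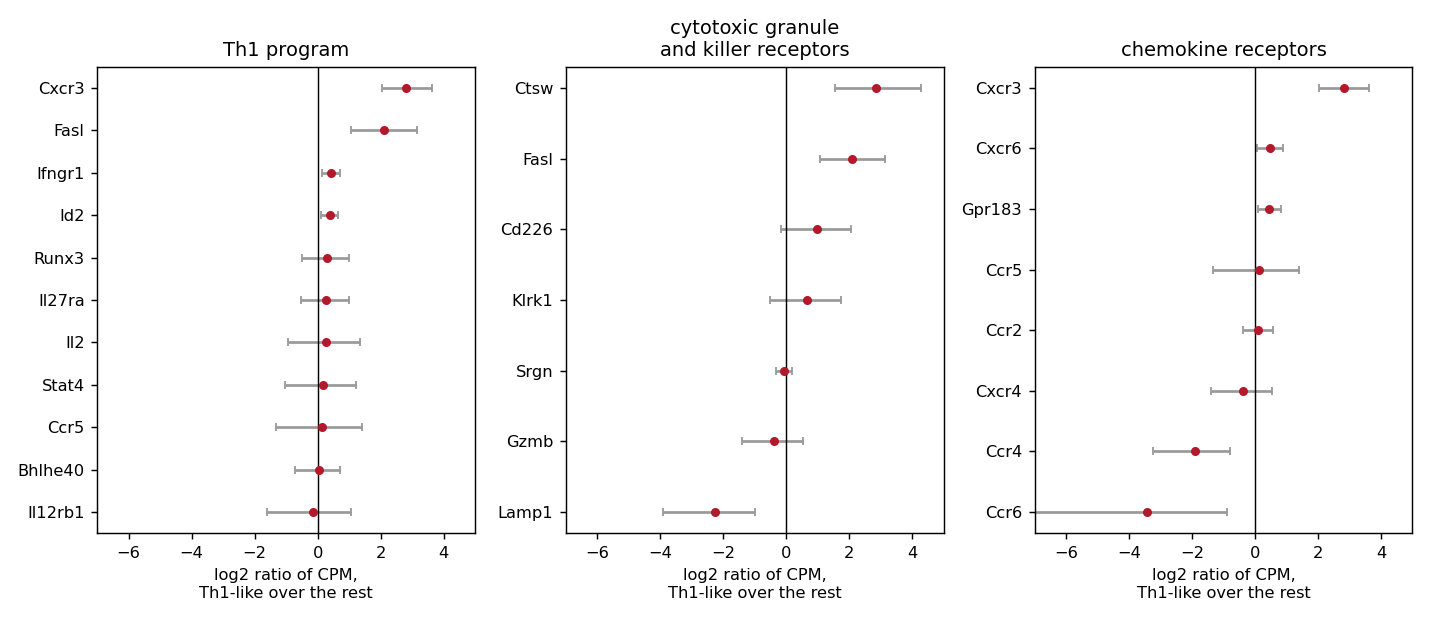
Log2 ratio of CPM, Th1-like cells over the rest (horizontal axis), for measured members of the Th1 program, the cytotoxic list and the chemokine receptors (vertical axis); points are ratios and bars exact 95% counting intervals. Cxcr3 at 2.81, Fasl at 2.09 and Ctsw at 2.85 stand right of 0, and Lamp1 at -2.28, Ccr4 at -1.90 and Ccr6 at -3.44 left of it.

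Among chemokine receptors Cxcr3 and Ccr4 were opposed. Ccr4, a receptor associated with type 2 cells and Tregs, had 7 counts in 3 Th1-like cells (58.2 CPM) and 94 counts in 42 cells of the rest (217 CPM), a log2 ratio of -1.90 (-3.26 to -0.80). Over 14 alternatives the Ccr4 ratio lay between -2.71 and -0.21, so its size depended on the processing. Ccr4 was found in 3.37% of Th1-like cells and 14.0% of the rest, and thinned in 1.12% and 10%. Of the 3 members with Ccr4, 2 also held Cxcr3. Ccr6, a receptor of Th17 cells, had 1 count in Th1-like cells and 39 counts in 25 cells of the rest, a log2 ratio of -3.44 (-8.78 to -0.88). Of 15 receptors listed 8 were measured, 5 higher and 3 lower, 1 past 1.5-fold higher and 2 lower, with a median of 0.11 that was -0.14 without the cells holding other markers. Those past 1.5-fold are near the shares of all measured genes, 18.8% higher and 24.6% lower.

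Genes of the other helper programs leaned lower in Th1-like cells. Of all measured genes 24.6% were past 1.5-fold lower and 18.8% higher, shares to set beside the type 2 and the Th17 list alike. For the type 2 program 6 of 11 genes were measured, of which 1 was higher and 5 lower, none past 1.5-fold higher and 3 lower, with a median of -0.95 that lay between -1.16 and -0.18 over the alternatives, nearest 0 with capped counts. Areg, the repair factor amphiregulin, had 1 count in Th1-like cells and 45 counts in 22 cells of the rest, a log2 ratio of -3.65 (-8.98 to -1.09). Il1rl1, which encodes the interleukin 33 receptor ST2, had 1 and 26 counts, a log2 ratio of -2.86 (-8.21 to -0.25). Il4 had 2 and 18 counts, with an interval that reached past 0. The ratios of these genes rest on 1 or 2 counts in Th1-like cells, so their size is loose.

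Gata3, the master factor of type 2 cells and also abundant in gut Tregs, stayed detectable in Th1-like cells. It had 897 CPM in Th1-like cells and 1330 CPM in the rest, a log2 ratio of -0.57 (-0.88 to -0.27). Over 14 alternatives that ratio lay between -1.33 and -0.22. Gata3 was detected in 42.7% of Th1-like cells (32.3% to 53.6%) and 51.0% of the rest (45.2% to 56.8%), where the intervals overlap. The members were not alike in this gene. Gata3 was found in 22 of the 35 members with 1 gate count (62.9%, 44.9% to 78.5%) and in 16 of the 54 with more (29.6%, 18% to 43.6%), at median depths of 1105 and 1177.5 counts. Members with 2 or more gate genes held Gata3 in 6 of 26 cells (23.1%), close to the 17 of 72 naive-like cells (23.6%). The number of gate counts is part of the gate, and this contrast was seen in the data first, so it is given as a description.

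For the Th17 program 7 of 12 genes were measured, of which 2 were higher and 5 lower, 1 past 1.5-fold higher and 5 lower, with a median of -0.89 that lay between -1.02 and -0.04 over the alternatives, nearest 0 with gate and levels from separate parts of the counts. The cytokine gene Il17a had 3 counts in 1 Th1-like cell and 27 counts in 6 cells of the rest, a log2 ratio of -1.32 (-3.69 to 0.38) that was 0.87 with separate parts. Il17f had 0 counts in Th1-like cells and 24 counts in 5 cells of the rest. Tmem176b, a membrane channel gene that Th17 cells express, was at -1.21 (-2.40 to -0.21). The exception was Ahr, the aryl hydrocarbon receptor, at 1.30 (0.16 to 2.39) with 108 CPM in Th1-like cells and 43.9 CPM in the rest.

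Genes shared with Tregs were lower in Th1-like cells, although Foxp3, Il10 and Ikzf2 were at 0 on both sides by the gate. Of 23 Treg program genes present, 14 were measured, of which 2 were higher and 12 lower, none past 1.5-fold higher and 6 lower, with a median of -0.46. Over the alternatives that median lay between -0.85 and -0.20. Of all measured genes, 24.6% were past 1.5-fold lower. Ctla4, the inhibitory receptor that competes with CD28, had 27 counts in 16 Th1-like cells (224 CPM) and 242 counts in 98 cells of the rest (560 CPM), a log2 ratio of -1.32 (-1.95 to -0.74). That ratio lay between -1.75 and -0.51 over 14 alternatives. Ctla4 was detected in 18% of Th1-like cells, 32.7% of the rest, 8.33% of naive-like and 75.9% of Foxp3-positive cells. Thinned, the shares were 6.74%, 20.7%, 4.17% and 48.8%, so Th1-like cells lay between the naive-like cells and the rest.

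Klrg1, an inhibitory receptor of effector cells and of gut Tregs, had 66.5 CPM in Th1-like cells and 213 CPM in the rest, a log2 ratio of -1.68 (-2.93 to -0.64). Across the alternatives its ratio lay between -3.52 and -0.70. Detection was 6.74% in Th1-like cells and 14.3% in the rest, and 5.62% and 9% after thinning, with overlapping intervals. Cd83 was at -2.71 (-5.80 to -0.78) with 2 and 47 counts, and Icos, a costimulator, at -0.36 (-0.73 to -0.01). A cell without a Foxp3 count may still express Foxp3 at this depth, and how many cells of the rest are such Tregs was not tested.

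Rgs1 was higher in Th1-like cells. It encodes a regulator that damps G protein signals from chemokine receptors and is known as a marker of tissue-resident T cells. Th1-like cells held 234 counts in 53 cells (1944 CPM) and the rest 388 counts in 117 cells (897 CPM), with at most 28 and 15 in a cell and a log2 ratio of 1.12 (0.88 to 1.35). Detection was 59.6% in Th1-like cells (48.6% to 69.8%), 39.0% in the rest (33.4% to 44.8%), 26.4% in naive-like and 48.8% in Foxp3-positive cells. After thinning it was 39.3%, 25%, 15.3% and 28.6%, with the Th1-like share again the highest of the 4. Members with 2 or more gate genes held Rgs1 in 19 of 26 cells (73.1%) and those with 1 gate gene in 34 of 63 (54.0%), with overlapping intervals.

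Other residency and homing genes differed less. Of 18 genes present, 14 were measured, of which 9 were higher and 5 lower, 2 past 1.5-fold higher and none lower, with a median of 0.19 that became -0.02 without the cells holding other markers. The 2 are near the 18.8% of all measured genes that were past 1.5-fold higher. Beside Rgs1, the gene past 1.5-fold was Itgb1, the beta 1 integrin chain, at 0.80 (0.10 to 1.46). Cxcr6, a receptor of resident T cells, had 615 CPM in Th1-like cells and 442 CPM in the rest, a log2 ratio of 0.48 (0.07 to 0.87). Itgal, the alpha chain of the adhesion receptor LFA-1, was at 0.50 (0.09 to 0.90), and Cd69, the early activation and retention marker, was close to level at -0.09.

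Interferon-induced genes were split. Of 26 listed 17 were measured, of which 11 were higher and 6 lower, 8 past 1.5-fold higher and 2 lower, with a median of 0.43. Over all measured genes 18.8% were past 1.5-fold higher and 24.6% lower. Psmb9, a subunit of the immunoproteasome, had 224 CPM in Th1-like cells and 109 CPM in the rest, a log2 ratio of 1.05 (0.31 to 1.76) that was -0.40 with gate and levels both thinned. Ly6a, which encodes Sca-1, was at 0.75 (0.15 to 1.33), Tap1, the peptide transporter, at 0.77 (0.05 to 1.45) and Ifi47, an inducible GTPase, at 0.79 (0.02 to 1.52). Against these stood Ifi27l2a at -1.09 (-2.28 to -0.09) and Socs1, the brake on cytokine signals, at -0.80 (-2.09 to 0.29). The median was -0.14 in cells thinned to 500 counts and -0.16 without cells holding other markers, so its direction depended on the processing.

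S100a4, S100a6 and S100a10, of the S100 family, were lower in Th1-like cells. S100a4, a calcium-binding protein of memory T cells, had 798 CPM in Th1-like cells and 1290 CPM in the rest, a log2 ratio of -0.69 (-1.02 to -0.38). S100a4 was detected in 37.1% of Th1-like cells (27.1% to 48.0%), 57.0% of the rest (51.2% to 62.7%), 18.1% of naive-like and 68.1% of Foxp3-positive cells. S100a6 was at -0.67 (-0.96 to -0.39) and S100a10 at -0.54 (-0.85 to -0.25). Of 17 genes in the list 16 were measured, of which 5 were higher and 11 lower, 1 past 1.5-fold higher and 4 lower, with a median of -0.22. The 4 are close to the 24.6% of all measured genes, and the median was 0.06 with counts capped at 1 per cell and gene. Lgals3 was at -1.57, and at 1.14 without the cells holding other markers. In the rest, 110 of the 139 Lgals3 counts were in 1 cell, and it was detected in 8.99% of Th1-like cells and 7% of the rest.

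**Figure D5:**
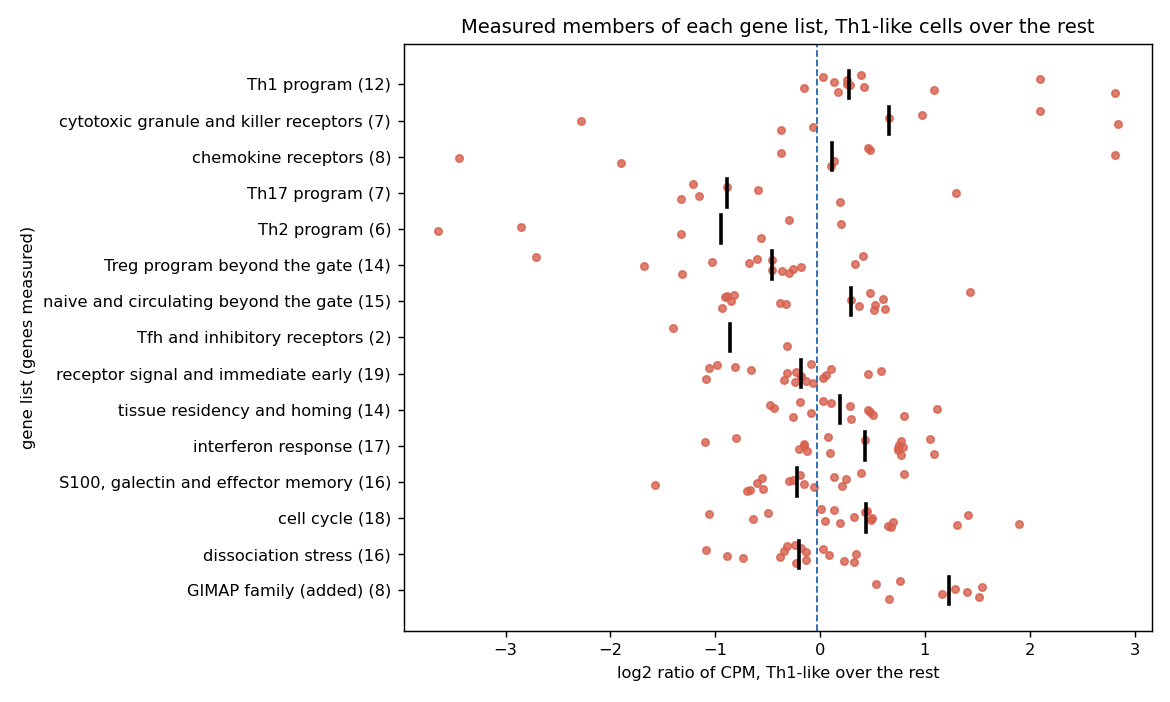
Log2 ratio of CPM, Th1-like cells over the rest (horizontal axis), for each measured gene (points) of 15 gene lists (vertical axis, number of measured genes in brackets); black bars are list medians and the dashed line the median of all measured genes, -0.03. The last list was added after its values were seen; the Th1 program median is 0.27, and those of the type 2 (-0.95), Th17 (-0.89) and Treg (-0.46) programs lie to the left.

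The list of genes induced by T cell receptor signals lay near the background. Of 25 genes present, 19 were measured, of which 5 were higher and 14 lower, none past 1.5-fold higher and 5 lower, close to the 24.6% of all measured genes, with a median of -0.18. That median was -0.005 with gate and levels both thinned and -0.41 without the cells holding other markers. Zfp36l1 and Zfp36, which encode proteins that destabilise cytokine messenger RNAs, were at -0.98 (-1.47 to -0.53) and -0.81 (-1.28 to -0.37). Zfp36l1 had 374 CPM in Th1-like cells and 740 CPM in the rest and was detected in 27.0% and 45%. Jun, an AP-1 subunit, was at -1.09 (-2.01 to -0.28), while Nr4a1, an immediate early gene of the receptor, was at -0.06. The dissociation stress list, which shares Jun and other genes with this list, had 16 of 18 measured, 5 higher and 11 lower, none past 1.5-fold higher and 3 lower, with a median of -0.20. The share of all measured genes to set beside these 3 is again 24.6%. The part of tissue digestion in these values was not tested.

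Genes of naive and circulating cells outside the gate did not lean to 1 side. Of 20 listed 15 were measured, of which 8 were higher and 7 lower, 3 past 1.5-fold higher and 5 lower, with a median of 0.29 that was -0.10 after thinning and 0.005 without the cells holding other markers. Set beside this list and the follicular helper list below, 18.8% of all measured genes were past 1.5-fold higher and 24.6% lower. Ets1, a T cell transcription factor, was at 0.48 (0.19 to 0.75), Klf2, which maintains quiescence and recirculation, at 0.52 (-0.04 to 1.05), and Dgka, a brake on receptor signals, at -0.91 (-1.92 to -0.03). A single naive gate gene was present in 28 Th1-like cells (31.5%) and 90 cells of the rest (30%), nearly equal shares. Of the 12 genes of follicular helper cells and inhibitory receptors only Tox at -0.31 (-1.30 to 0.57) and Slamf6 at -1.40 (-4.55 to 0.65) were measured, both lower and 1 past 1.5-fold, with a median of -0.86 that was -0.16 without the cells holding other markers.

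Cell cycle genes had a positive median that moved with the processing. Of 19 genes present, 18 were measured, of which 15 were higher and 3 lower, 6 past 1.5-fold higher and 2 lower, with a median of 0.44. The shares of all measured genes were 18.8% past 1.5-fold higher and 24.6% lower. Rrm2, a subunit of ribonucleotide reductase, was at 1.90 (1.05 to 2.75), with 26 counts in 7 Th1-like cells and 17 of them in 1 cell. Mcm3, a subunit of the replicative helicase, was at 1.41 (0.57 to 2.24) with 23 counts in 9 cells. When no cell could give a gene more than 1 count, the median of the list was 0.02. It was -0.27 with gate and levels both thinned, where Rrm2 was at -0.40, and 0.17 without the cells holding other markers.

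The remaining genes named by the size of their ratio had few counts each. Those higher in Th1-like cells after Cxcr3 were Mtmr6 at 2.23, Yrdc at 2.22, Pag1 at 2.19, Khsrp at 2.15, Fasl, Pde3b at 2.08, Ddx47 at 2.04, Ubl4a at 1.93, Rap2b and Nsmaf both at 1.85, and Gspt1 at 1.80. Pde3b, a phosphodiesterase that degrades cyclic AMP, had 27 counts in 18 Th1-like cells (20.2%) and 23 counts in 18 cells of the rest (6.00%), 224 and 53.2 CPM. Pag1, a membrane adaptor that recruits the inhibitory kinase CSK, had 19 counts in 12 Th1-like cells and 15 in 11 cells of the rest. Those lower were Rbbp6 at -3.94, Lamp1, Slc1a5 at -2.27, Fam104a at -2.26, Evi2a and Frmd4b at -2.12 each, Swi5 at -2.09, Mrps18c at -2.03, Itgb3 at -1.99, Egln1 at -1.91, Ccr4 and Ppp1r14b at -1.82. Slc1a5, a glutamine transporter, had 3 counts in Th1-like cells and 52 in the rest, and Egln1, an oxygen-sensing enzyme, 4 and 54. They are extremes among the 1800 genes with at least 30 counts and 10% detection on their higher side, most with sparse counts. With gate and levels both thinned Mtmr6 was at -0.86, and with gate and levels from separate parts of the counts Rap2b was at -0.15 and Itgb3 at 0.25, each on the other side of 0.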

How the data were processed

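The authors deposited 1 table of counts per barcode and gene. Per the submitters' processing notes, TopHat2, SAMtools and the mm10 build were used, with no versions or roles; the counting tool, the treatment of molecular identifiers and the barcode filter are in none of the sources used here. Whether the counts are reads or molecules is therefore unknown, and amplified reads are not independent molecules.

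Cells with at least 500 counts, 200 genes and under 20% mitochondrial counts were kept, and no doublet was removed in the main values. Counts were summed per side and scaled to counts per 1000000 (CPM). Log2 ratios have exact conditional 95% intervals, and shares exact binomial (Clopper-Pearson) ones; both cover counting error only. A side of 0 was set to 3 counts, which gives a bound, and a share of 0 was given the limit of 3 cells. No test was run, since the table is 1 sample. Named genes were the 12 highest and 12 lowest with at least 30 counts and 10% detection, up to 4 leading members of each list, and all Th1, cytotoxic, chemokine and other-cell markers. Results of 1 gene are not reported here. The members and lists were chosen with earlier results of these data known. Scripts were tested on simulated data. Symbols were matched to GENCODE vM21 (25033 of 25724, 97.3%). Values were repeated under 15 alternative settings and 4 more chosen after the data were seen, among them means of per-cell CPM, totals without ribosomal and mitochondrial genes, centring on the median, and leaving out the 2 members with over 20 gate counts; the closing section gives results that moved. Software was Python 3.11.15 with numpy 2.4.6, pandas 2.3.3, scipy 1.17.1 and, for Scrublet, scanpy 1.11.5.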

Additional observations from a re-analysis of the deposited data

Results flagged for a closer look

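The Th1 gate genes were also found in cells that the gate leaves out, which no comparison above describes by itself. At least 1 of the 4 genes was detected in 53 of 332 Foxp3-positive cells (16.0%, 12.2% to 20.4%), mostly through Nkg7 in 35 cells (10.5%) and Ccl5 in 14 cells (4.22%), with Tbx21 and Ifng in 5 cells each. In cells with Il10 or Ikzf2 but no Foxp3 the share was 44 of 257 (17.1%, 12.7% to 22.3%), again with Nkg7 first, in 24 cells. In naive-like cells it was 5 of 72 (6.94%, 2.29% to 15.5%), and Ccl5 was at 0. The count to set beside these is 89 of the 389 cells of both sides, since the members were chosen by these genes. The shares lie above the limit of 3 cells that a count of 0 allows, 0.904%, 1.17% and 4.17%, though the interval of the naive-like share reaches below its limit. This does not set the shares apart from free RNA. Median depth was 1304.5, 1242 and 1362.5 counts in these populations. The part of free RNA was not tested.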

How the results depend on the processing

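No paired analysis was possible because the barcodes carry no sample. The number of genes at least 2-fold higher, 335, was 100 with counts capped at 1 per cell and gene, 117 in cells thinned to 500 counts, 71 among genes with at least 50 counts and 951 with no minimum. The number at least 2-fold lower, 633, was 213 with capped counts, 198 in thinned cells, 342 with gate and levels both thinned, 397 with gate and levels from separate parts of the counts, 157 at 50 counts and 1160 with no minimum. The share of Th1-like cells, 8.48%, was 5.14% with at least 2 gate counts and 3.52% with Tbx21 or Ifng required. Of 1794 alternative values for named genes 1578 lay within the counting interval of the reported value, and of 299 list medians 276 stayed within their tolerance. That tolerance was the width of the counting interval of the list's middle gene, divided by 2. It was wide for some lists, 1.39 for the Th17 and 9.03 for the myeloid list. Some alternatives could hardly differ, as centring moved each ratio by 0.005 and leaving out doublets removed 1 cell of the rest. These numbers are therefore no measure of robustness.

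Some signs reversed, and beyond the values given here the cause was not tested. Lgals3 was at 0.39 with capped counts, 0.37 thinned, 0.99 in cells with at least 800 counts and 1.14 without cells holding other markers. In the rest, 1 cell held 110 of its 139 counts. The stromal list was at 0.62 with capped counts, where only Pecam1 still reached 20, with 12 Th1-like cells and 27 of the rest. The cytotoxic list was at -0.18 thinned, -0.38 at 50 counts and -0.073 with Nkg7 or Ccl5 as the gate, where Il18rap was at -0.63. At 50 counts only Gzmb, Srgn and Lamp1 of that list were left, and its median was the value of Gzmb. With gate and levels thinned, Mtmr6 was at -0.86, Csf2 at 0.017, Psmb9 at -0.40 and Rrm2 at -0.40. With separate parts of the counts, Rap2b was at -0.15, Itgb3 at 0.25, Il17a at 0.87 and the follicular helper list at 0.13. Both of these settings also read the Treg and naive conditions anew, so the cells compared changed along with the counts. The naive list was at -0.14 with gate and levels thinned, -0.30 with separate parts and -0.51 with at least 2 gate counts, where the cell cycle list was at -0.25. Chemokine receptors were at -0.29 as means of per-cell CPM and -0.07 without the 2 members of over 20 gate counts. Depth limits genes under about 20 counts in the Th1-like cells, where 0 allows up to 24.9 CPM. Scrublet called 9 doublets (0.857%), none of them a member and 1 in the rest.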

Other observations

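The GIMAP genes, a family of GTPases of lymphocyte survival, were higher in Th1-like cells; the family was added as a list after its values were seen. All 8 genes in the table were measured and higher, 7 of them past 1.5-fold, with a median log2 ratio of 1.23 against -0.03 over all measured genes. Among all measured genes, 48.2% were higher and 18.8% past 1.5-fold higher. Gimap4 had 184 counts in 51 Th1-like cells (1529 CPM) and 295 counts in 107 cells of the rest (682 CPM), a log2 ratio of 1.16 (0.89 to 1.43). It was detected in 57.3% of Th1-like cells, 35.7% of the rest, 41.7% of naive-like and 39.5% of Foxp3-positive cells, and thinned in 41.6%, 23.7%, 33.3% and 24.4%. Gimap3 was at 1.52 (1.02 to 2.01) with 524 and 183 CPM, but at 32.6% its detection in Th1-like cells was below the 36.1% of naive-like cells. Over the alternatives the median of the family lay between 0.70 and 1.25, with 1.05 in cells without markers of other cell types. Gimap genes lie beside each other in the genome and resemble each other in sequence, so counts can be shared between them.

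Barcodes with 200 to 499 counts were too few to repeat the Cxcr3 comparison. Under the same gate, Cxcr3 was found in 0 of 7 barcodes with a gate gene, which allows up to 42.9%, and in 2 of 60 without (3.33%).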
